A study of Mus musculus with 4 samples.

Results

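The enzymes that carry glucose carbon from the cell surface to the mitochondrion were followed in mouse blood stem and progenitor cells after knockdown of the microRNA miR-99. The set is a list of 38 named genes, taken by symbol from the 45232 gene rows of the count files, and all 38 were found. It holds 2 glucose carriers, 6 enzymes of upper glycolysis and 8 of lower glycolysis. Another 2 are lactate dehydrogenase subunits, 6 act at the entry of pyruvate into the mitochondrion, 4 in the pentose phosphate pathway and 10 in or beside the TCA cycle. The rule names genes by pathway and uses no measured value.

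Glycolysis splits glucose to pyruvate in the cytosol. Pyruvate is then reduced to lactate, or enters the mitochondrion through the pyruvate dehydrogenase complex, which pyruvate dehydrogenase kinases switch off. The pentose phosphate pathway branches off near the top and yields NADPH and ribose, and the TCA cycle oxidises acetyl groups and feeds the respiratory chain. Long-term haematopoietic stem cells are known for relying on glycolysis more than their progeny do, with hypoxia-inducible factors and the kinases Pdk2 and Pdk4 among the regulators described for them.

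The cells were LSK cells, the fraction that lacks lineage markers and carries Kit and Sca-1, sorted for green fluorescent protein. They came from mice that had received long-term haematopoietic stem cells 3 months earlier. In the Scr group the transplanted cells carried a scrambled control, and in the miR-99 KD group a knockdown of miR-99, with 2 mice and 2 libraries in each group. The sources used here do not give the strain, sex or age of donors and recipients, nor the construct. Mature miR-99 was not checked in these files. Each library held between 27295197 and 32350590 gene counts, from bulk RNA amplified with SMARTer, a PCR method for scarce RNA. Values are CPM, counts brought to a common library size with edgeR's TMM factors. Paired values are given for library 1 and then library 2. Log2 differences are miR-99 KD minus Scr, with the standard error (SE) from edgeR and n = 2 libraries in each group throughout. Bulk RNA cannot tell fewer cells of a type from less RNA per cell. With 2 libraries a group, p-values measure the spread between these mice and their preparation together, and an exact permutation test cannot go below 0.333.

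Cell type markers differed among the libraries too, and their part in the results below was not tested. Of 15 stem cell markers 11 lay below both controls in both knockdown libraries, beside 26.0% of all genes tested, and 3 overlapped. Hoxb5 was higher in both, at 1.29 and 0.927 CPM in Scr against 1.67 and 2.97 CPM in miR-99 KD. Summed levels of the 15 were 3057 to 3448 CPM in Scr and 1591 to 1725 CPM in miR-99 KD. Kit and Cd34 took the largest parts of the sum, at means of 1214 and 784 CPM in Scr. Of 16 erythroid markers tested 12 were higher in both knockdown libraries, beside 24.5% of all genes tested, and 4 overlapped. Their sums were 9933 to 10549 CPM in Scr against 15200 to 16801 CPM in miR-99 KD. The symbols Hbb-b1 and Hbb-b2 matched no row. All 16 neutrophil markers were highest in miR-99 KD 1, with sums of 8492 and 6329 CPM in Scr 1 and 2, 29728 CPM in miR-99 KD 1 and 5349 CPM in miR-99 KD 2. The 13 B cell markers were also highest there, with sums of 46.4 to 99.3 CPM in Scr, 347 CPM in miR-99 KD 1 and 99.6 CPM in miR-99 KD 2. The 10 macrophage markers summed to 662 to 1730 CPM in Scr and 970 to 4167 CPM in miR-99 KD, and all 10 overlapped between the groups. Most of these sums was Lyz2, at 1214 and 457 CPM in Scr against 3620 and 610 CPM in miR-99 KD. No marker of these 5 lists that matched a row was at 0 in any library. Of 8 muscle and brain markers 5 could be tested, of which 2 were higher in both knockdown libraries, 0 lower and 3 overlapped. Gfap, an astrocyte filament gene, stood at 20.3 and 10.9 CPM in Scr against 30.5 and 36.3 CPM in miR-99 KD (DESeq2 adjusted p = 0.0453), and Snap25, a synaptic gene, at 1.195 and 0.412 CPM against 1.33 and 5.80 CPM. Mbp, a myelin gene, overlapped at 170 to 249 CPM, as did the muscle genes Acta1 and Ckm, below 2 CPM in every library. Myh1, Myh2 and Mb were at 0 in 3 libraries and too low to test. The gate's own markers were present, with Kit at 1149 and 1280 CPM in Scr against 670 and 774 CPM in miR-99 KD, and Ly6a, which encodes Sca-1, between 12.4 and 46.5 CPM.

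The comparison asks how the RNA of these enzymes differed with the knockdown, and the pathways did not move as a block. Glucose carriers and several enzymes of upper glycolysis were lower in both knockdown libraries, while the TCA enzymes had a median log2 difference of 0.18. The pentose phosphate enzymes were highest in miR-99 KD 1, and their sum in miR-99 KD 2 was within the Scr range. All 38 genes passed the filter on low counts. After Benjamini-Hochberg adjustment over all 15320 genes tested, the quasi-likelihood test of edgeR called 0 members and 0.00% of genes, and the lowest adjusted p of a member was 0.232. At an unadjusted p under 0.05 edgeR counted 4 members higher and 7 lower, or 10.5% and 18.4%, beside 5.97% and 9.63% of all genes tested. DESeq2 called 1 member, Pfkl, on the lower side, beside 5.79% of all genes, of which 4.13% were lower and 1.66% higher, and limma-voom called 0. The groups did not overlap in 21 members, or 55.3%, where the share over all genes was 50.5%. The knockdown was on the higher side in 10, or 26.3%, against 24.5% of all genes, and on the lower side in 11, or 28.9%, against 26.0%. These shares are near those of all genes. Scaled by library totals alone, 8 members were higher and 14 lower, and at an unadjusted p under 0.05 the split was 1 higher and 8 lower. Under that scaling 18.0% of all genes tested were on the higher side and 31.9% on the lower side, so all genes shift with the members.

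The median log2 difference was 0.01 over the members and 0.02 over all genes tested. Together the members took 0.963% and 0.975% of gene counts in Scr 1 and 2, and 1.01% and 0.896% in miR-99 KD 1 and 2. The share of the transcriptome spent on the set did not separate the groups, and its makeup is what the following values describe. Pfkl alone differed by more than 2-fold in mean CPM.

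**Figure D1:**
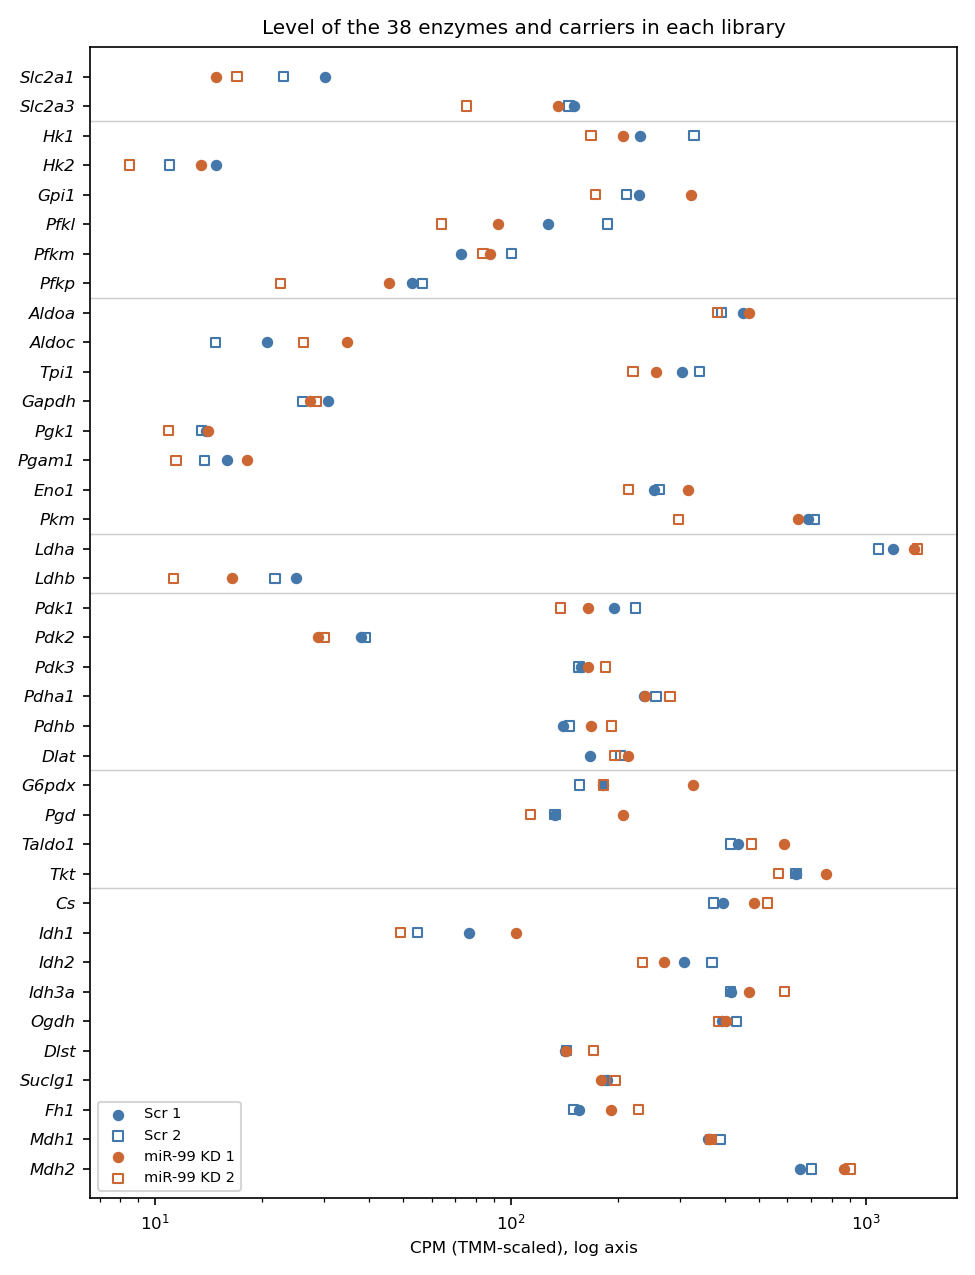
Level of each of the 38 genes (rows, in pathway order, with lines between steps) in CPM on a log axis, with circles for library 1 and open squares for library 2, blue for Scr and orange for miR-99 KD. Ldha is the most abundant at 1080 to 1393 CPM, and Pfkl, Ldhb and Slc2a1 show both orange marks to the left of both blue ones.

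**Figure D2:**
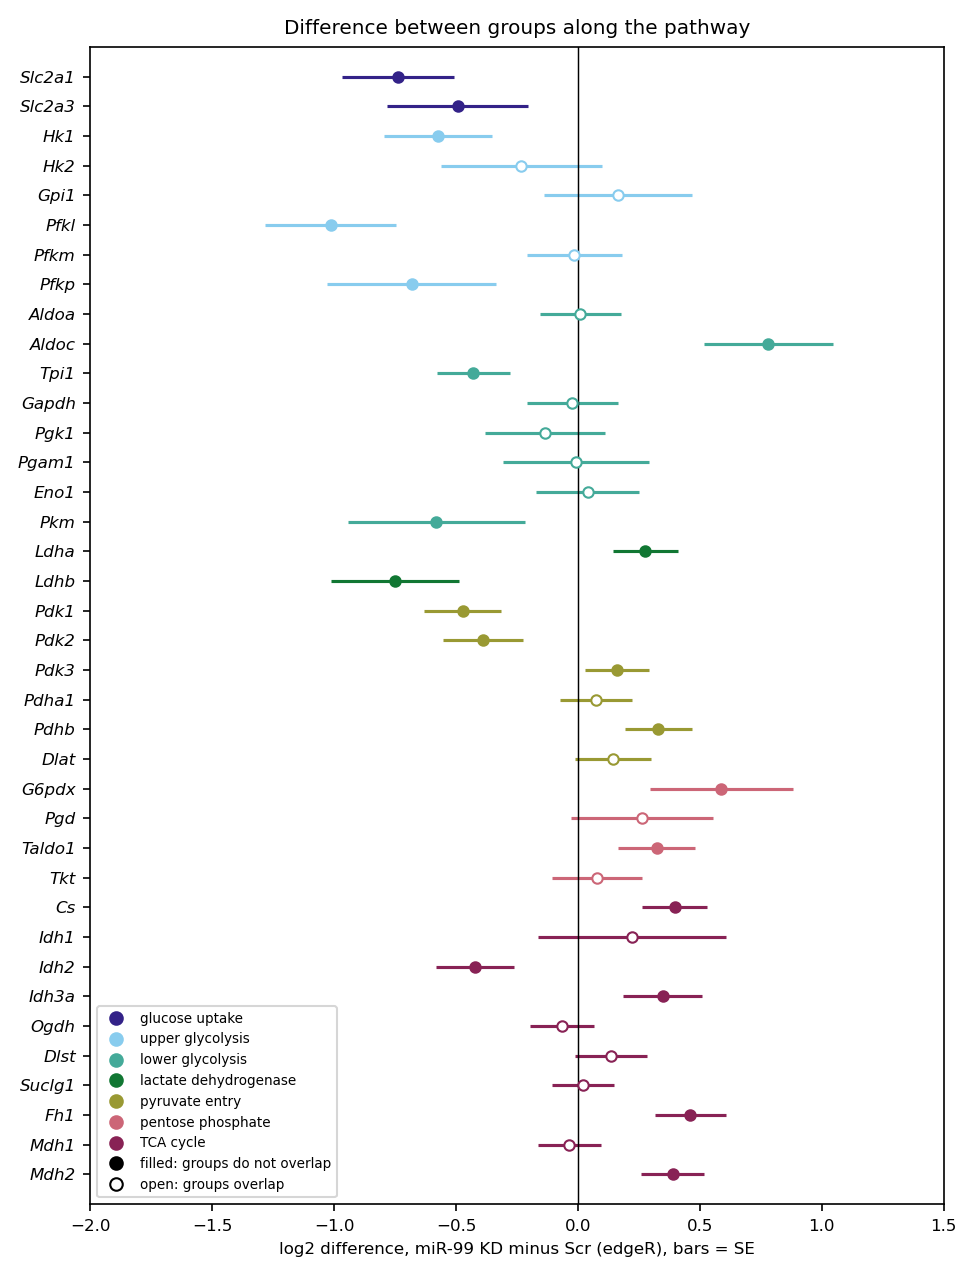
The log2 difference of each gene, miR-99 KD minus Scr, with its standard error from edgeR as a bar, coloured by step. Filled circles mark the 21 genes whose groups do not overlap; the top of the plot holds mostly negative differences, down to -1.01 for Pfkl, and the TCA enzymes at its foot mostly small positive ones, up to 0.46 for Fh1.

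Several glycolytic genes are known to have processed copies elsewhere in the genome, with which they can share reads. A stretch of at least 50 bases at 98% identity or more was found in transcripts of other genes for 12 of the 38, and it covered over 20% of the transcript in 8. Gapdh was the extreme, with 87.96% of its transcript shared with 42 other genes, and it stood at only 26.0 to 30.6 CPM. Eno1 shared 85.6%, Ldhb 76.8%, Pgk1 68.8%, Pkm 65.5%, Gpi1 48.7%, Pgam1 43.1% and Pdha1 21.4%. The files list reads with several alignments apart from the genes, so the levels of these genes are uncertain. Such reads made up 18.0% to 21.9% of each library.

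Some known hypoxia and Myc response letters are shown here because genes that share them stood on opposite sides of the comparison. The core of the hypoxia-response element reads ACGTG or GCGTG, and the E-box bound by Myc and by the carbohydrate-response factors reads CACGTG, which contains ACGTG. RefSeq promoters of GRCm38.p6 were searched on both strands over the 250 bases before each start, and 36 of the 38 members matched one, leaving out Slc2a3 and Idh3a. The letters ACGTG or GCGTG were in a promoter of 31 of the 36, or 86.1%, and of 41.5% of all 27025 genes in the table. A gene with several promoters was counted if any of them matched. Counted by promoter, the shares were 76.8% of 56 member promoters and 38.6% of all 32851. CACGTG was in 4 of the 36, or 11.1%, against 6.86%. Member promoters had 14.9 CG dinucleotides on average and all promoters 9.86, and each of these motifs contains CG, so base composition moves with the shares and was not matched. By position, 9 of 10 matched members that were lower in both knockdown libraries held ACGTG or GCGTG, as did 8 of 9 that were higher and 14 of 17 that overlapped. The windows below are written on the gene's strand with the matched letters in capitals, where CACGC and CACGT are GCGTG and ACGTG read from the other strand. The first 5 come from genes that were lower in both knockdown libraries, and the last 4 from genes that were higher in both.
Pfkl, chr10:78009892-78009916, minus strand: ttgtagactgGCGTGcgctccgcct
Slc2a1, chr4:119108674-119108698, plus strand: cccacagaacCACGCctctcagagt
Slc2a1, chr4:119108699-119108723, plus strand: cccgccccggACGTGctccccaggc
Pdk1, chr2:71873136-71873160, plus strand: gcctacatggGCGTGtctttaacca
Hk1, chr10:62340422-62340446, minus strand: actgtgccacCACGCGTGaccgcgc
Ldha, chr7:46845649-46845674, plus strand: tgtcgcagcaCACGTGgagccactct
Ldha, chr7:46845746-46845771, plus strand: gcccagcctaCACGTGggttcccgca
Ldha, chr7:46845760-46845784, plus strand: tgggttcccgCACGTccgctgggct
Mdh2, chr5:135778542-135778566, plus strand: cgggtctaggGCGTGctagacaagg
One of the listed promoters of Ldha held 3 separate stretches of these letters, 2 of them the full E-box. A match describes the letters only and says nothing of binding.

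RNA of both glucose carriers was lower in the knockdown, without passing the test, and uptake itself was not measured. Slc2a1 (ENSMUSG00000028645), the GLUT1 carrier, stood at 30.1 and 23.0 CPM in Scr against 14.9 and 17.0 CPM in miR-99 KD 1 and 2. Both knockdown libraries lay below both controls. The log2 difference was -0.74 ± 0.23 (SE, edgeR adjusted p = 0.260). Slc2a3 (ENSMUSG00000003153), the high-affinity GLUT3 carrier and the more abundant of the pair, stood at 151 and 146 CPM in Scr against 136 and 75.2 CPM in miR-99 KD. Its difference of -0.49 ± 0.29 (SE) was -0.13 without miR-99 KD 2 and -0.98 with miR-99 KD 1 left out. Per kilobase of transcript, Slc2a3 was 4.13 and 5.21 times Slc2a1 in the Scr libraries and 7.52 and 3.64 times in the miR-99 KD libraries, so the carriers' balance did not separate the groups.

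Upper glycolysis held the most negative difference of the set. Pfkl (ENSMUSG00000020277), the liver-type phosphofructokinase that commits sugar to glycolysis, stood at 128 and 188 CPM in Scr against 92.3 and 63.9 CPM in miR-99 KD 1 and 2. The groups did not overlap, and the means were 158 ± 42.4 and 78.1 ± 20.1 CPM (SD, n = 2 per group). The knockdown mean was 0.495 times the control mean, or -1.01 ± 0.27 (SE) on the log2 scale. It passed DESeq2 at an adjusted p of 0.0124 and did not pass edgeR, at 0.232. The DESeq2 call was lost without Scr 2, where the log2 difference was -0.70 with an adjusted p of 0.9995, and held without each of the other libraries at adjusted p of 2.3e-05 to 0.0383. Its partners did not follow it equally. Pfkm (ENSMUSG00000033065), the muscle-type enzyme, stood at 72.4 and 101 CPM in Scr against 87.7 and 83.6 CPM in miR-99 KD, and the libraries overlapped. Pfkp (ENSMUSG00000021196), the platelet type, stood at 52.7 and 56.6 CPM in Scr against 45.6 and 22.6 CPM in miR-99 KD, with a difference of -0.68 ± 0.35 (SE), which was -1.28 without miR-99 KD 1 and -0.26 with miR-99 KD 2 left out.

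The makeup of phosphofructokinase can be read within each library, where scaling plays no part. Pfkm counts per kilobase were 0.735 and 0.695 times those of Pfkl in Scr 1 and 2, and 1.23 and 1.70 times in miR-99 KD 1 and 2. By this measure Pfkl was ahead in both controls and Pfkm in both knockdown libraries. Which form is ahead depends on the length taken for each transcript. By CPM alone Pfkl was also ahead in miR-99 KD 1, at 92.3 against 87.7 CPM. The 2.02-fold shift of the ratio does not depend on the lengths (exact permutation p = 0.333, two-sided, n = 2 per group, the smallest the design allows). The ratio of Pfkp to Pfkl overlapped between the groups, at 0.371 and 0.271 against 0.444 and 0.318.

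Hk1 (ENSMUSG00000037012), the hexokinase that traps glucose in the cell, was lower at 231 and 328 CPM in Scr against 207 and 168 CPM in miR-99 KD. The gap between Scr 1 and miR-99 KD 1 was small beside the gap between the Scr libraries, and the difference of -0.57 ± 0.22 (SE) had an edgeR adjusted p of 0.313. Hk2 (ENSMUSG00000000628), the inducible hexokinase, was scarce at 8.51 to 14.9 CPM and overlapped. In Scr, Hk1 averaged 65.3 and Hk2 2.34 CPM per kilobase of transcript, so Hk1 was the main form of this pair by this measure. Outside the set, the hexokinase Hk3 averaged 24.8 and the ADP-dependent glucokinase Adpgk 41.2 CPM per kilobase in Scr. Gpi1 (ENSMUSG00000036427), glucose phosphate isomerase, stood at 230 and 212 CPM in Scr, 322 CPM in miR-99 KD 1 and 173 CPM in miR-99 KD 2, with the knockdown libraries on either side of the controls.

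Over uptake and upper glycolysis together, 5 of 8 genes were lower in both knockdown libraries, 0 were higher and 3 overlapped. Over all genes tested 26.0% were lower and 24.5% higher. The median log2 difference of the 8 was -0.53. miR-99 KD 2 was the lowest library in 6 of the 8, against 29.9% of all genes. The sum of the 8 was 910 and 1064 CPM in Scr against 919 and 612 CPM in miR-99 KD 1 and 2, so the groups overlapped on the sum. Most stem cell markers were lower and most erythroid markers higher in the same libraries, as given above.

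In lower glycolysis most genes overlapped between the groups, and the knockdown libraries disagreed. Of 8 genes 1 was higher, 2 were lower and 5 overlapped, beside 24.5% higher and 26.0% lower over all genes tested. The median log2 difference of the 8 genes was -0.02. Their sum was 1776 and 1776 CPM in Scr, 1773 CPM in miR-99 KD 1 and 1191 CPM in miR-99 KD 2. miR-99 KD 1 was the highest library for 5 of the 8, against 21.9% of all genes. miR-99 KD 2 was the lowest for 6, against 29.9%. Pkm (ENSMUSG00000032294), pyruvate kinase of the last step, stood at 687 and 715 CPM in Scr, 641 CPM in miR-99 KD 1 and 297 CPM in miR-99 KD 2. Its log2 difference was -0.58 ± 0.36 (SE), and it was -0.13 without miR-99 KD 2 and -1.24 with miR-99 KD 1 left out. Tpi1 (ENSMUSG00000023456), triose phosphate isomerase, was more even at 303 and 339 CPM in Scr against 256 and 221 CPM in miR-99 KD, and the groups did not overlap. On the log2 scale it differed by -0.43 ± 0.15 (SE, edgeR adjusted p = 0.290).

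Aldoc and Aldoa are the brain-type and muscle-type aldolases that cleave the sugar. Aldoc (ENSMUSG00000017390) stood at 20.6 and 14.8 CPM in Scr against 34.6 and 26.2 CPM in miR-99 KD, the highest log2 difference of the set at 0.78 ± 0.26 (SE, edgeR adjusted p = 0.285). Aldoa (ENSMUSG00000030695) was the far more abundant of the pair, at 451 and 391 CPM in Scr against 466 and 382 CPM in miR-99 KD, and overlapped. Counts per kilobase of Aldoc were 0.0254 and 0.0210 times those of Aldoa in Scr and 0.0413 and 0.0382 times in miR-99 KD, so Aldoc stayed the minor form. The other 4 genes, Gapdh, Pgk1, Pgam1 and Eno1, had log2 differences of -0.14 to 0.04 and each overlapped, with the caution on shared reads given above. Gapdh is often used as a reference gene, and here it stood at 30.6 and 26.0 CPM in Scr against 27.3 and 28.4 CPM in miR-99 KD.

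The subunits of lactate dehydrogenase stood on opposite sides, without passing the test. Ldha (ENSMUSG00000063229), whose enzyme favours making lactate, stood at 1192 and 1080 CPM in Scr against 1359 and 1393 CPM in miR-99 KD 1 and 2. It was the most abundant member, and both knockdown libraries lay above both controls by a log2 difference of 0.28 ± 0.13 (SE, edgeR adjusted p = 0.379). Ldhb (ENSMUSG00000030246), whose enzyme favours using lactate, stood at 24.9 and 21.8 CPM in Scr against 16.4 and 11.3 CPM in miR-99 KD. Its log2 difference was -0.75 ± 0.26 (SE, edgeR adjusted p = 0.293). Within libraries, Ldha counts per kilobase were 34.4 and 35.7 times those of Ldhb in Scr and 59.3 and 88.6 times in miR-99 KD. The Scr libraries agreed closely on this ratio, and the knockdown libraries were 2.07-fold higher on the mean log2 scale (exact permutation p = 0.333, two-sided, n = 2 per group). Since most of the Ldhb transcript has a near-identical copy, the size of the ratio is uncertain.

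**Figure D3:**
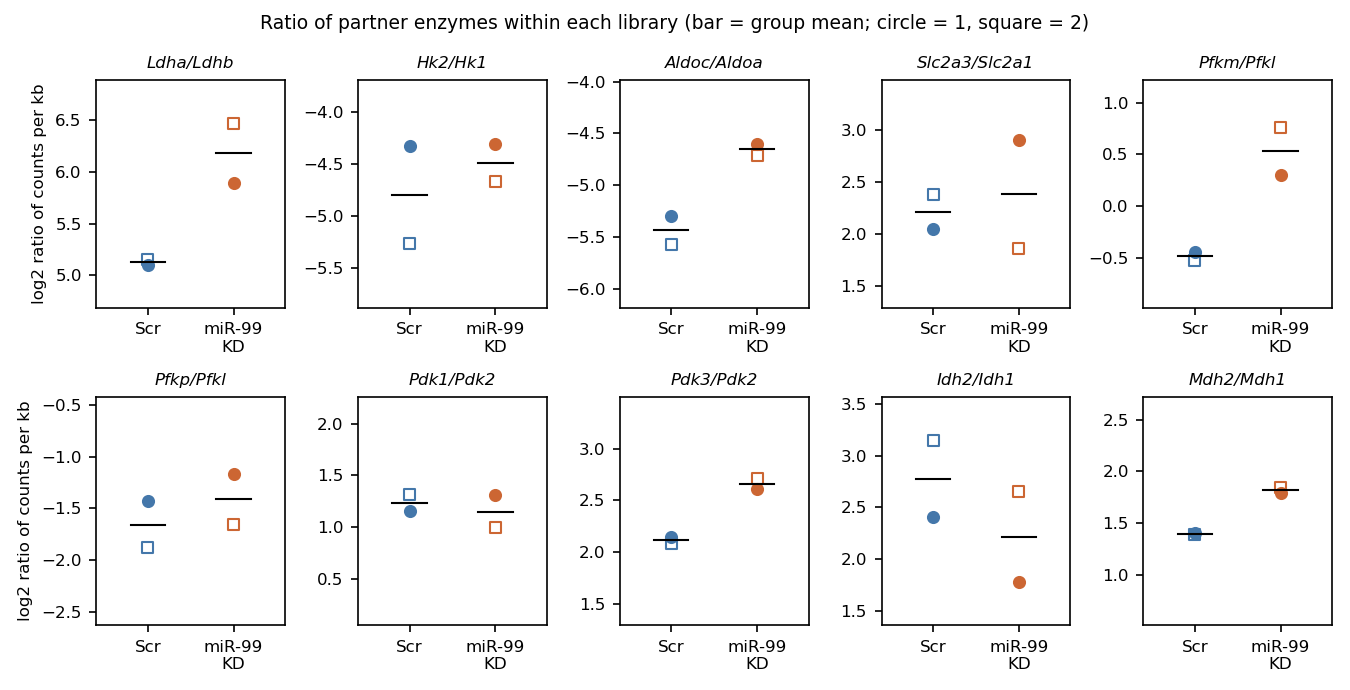
Log2 ratio of counts per kilobase for 10 pairs of partner enzymes within each library (circle for library 1, square for library 2, bar for the group mean), each panel spanning the same range. The groups do not overlap for Ldha/Ldhb, Aldoc/Aldoa, Pfkm/Pfkl, Pdk3/Pdk2 and Mdh2/Mdh1, and overlap for the other 5.

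At the entry of pyruvate, 2 of 3 kinases that switch off pyruvate dehydrogenase were lower and the complex itself was level or slightly higher. Pdk1 (ENSMUSG00000006494), a hypoxia-induced kinase, stood at 195 and 225 CPM in Scr against 165 and 138 CPM in miR-99 KD, which is -0.47 ± 0.16 on the log2 scale (SE, edgeR adjusted p = 0.280). Pdk2 (ENSMUSG00000038967), a widely expressed kinase described in stem cells, was tight within groups at 37.9 and 39.2 CPM in Scr against 28.8 and 30.01 CPM in miR-99 KD. Its log2 difference was -0.39 ± 0.16 (SE, edgeR adjusted p = 0.339). Pdk3 (ENSMUSG00000035232) went the other way, at 158 and 156 CPM in Scr against 166 and 185 CPM in miR-99 KD. Pdk3 counts per kilobase were 4.43 and 4.23 times those of Pdk2 in Scr and 6.10 and 6.55 times in miR-99 KD, so the groups were separate on this ratio, while the ratio of Pdk1 to Pdk2 overlapped. Pdk4 was too low to be tested.

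Among the subunits of the complex, Pdhb (ENSMUSG00000021748), the E1 beta chain, stood at 140 and 147 CPM in Scr against 169 and 192 CPM in miR-99 KD. Both knockdown libraries were above both controls, at 0.33 ± 0.14 (SE, edgeR adjusted p = 0.336) on the log2 scale. Pdha1 (ENSMUSG00000031299), the E1 alpha chain that the kinases phosphorylate, stood at 237 and 256 CPM in Scr against 238 and 280 CPM in miR-99 KD and overlapped. Dlat (ENSMUSG00000000168), the E2 core, also overlapped, at 168 to 204 CPM in Scr and 197 to 214 CPM in miR-99 KD. Of the 6 genes at this step 2 were higher, 2 lower and 2 overlapped, with a median log2 difference of 0.11. Over all genes tested 24.5% were higher and 26.0% lower.

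The pentose phosphate enzymes were highest in miR-99 KD 1 in 4 of 4 cases, against 21.9% of all genes. G6pdx (ENSMUSG00000031400), the first and rate-setting enzyme, stood at 182 and 156 CPM in Scr, 326 CPM in miR-99 KD 1 and 182.5 CPM in miR-99 KD 2, which was nearly the level of Scr 1. Its log2 difference of 0.59 ± 0.29 (SE, edgeR adjusted p = 0.389) was 0.11 without miR-99 KD 1 and 0.95 with miR-99 KD 2 left out. Pgd (ENSMUSG00000028961), the next NADPH-yielding enzyme, stood at 133.5 and 133.4 CPM in Scr, 206 CPM in miR-99 KD 1 and 114 CPM in miR-99 KD 2. Tkt (ENSMUSG00000021957), the transketolase that returns sugars to glycolysis, stood at 635 and 634 CPM in Scr, 771 CPM in miR-99 KD 1 and 567 CPM in miR-99 KD 2. For Pgd and Tkt the Scr libraries were almost identical and the knockdown libraries lay on either side of them. Without miR-99 KD 1 the log2 difference was -0.23 for Pgd and -0.16 for Tkt. Taldo1 (ENSMUSG00000025503), transaldolase, was above both controls in both knockdown libraries, at 436 and 415 CPM against 588 and 477 CPM. The step's summed level was 1387 and 1339 CPM in Scr, 1892 CPM in miR-99 KD 1 and 1340 CPM in miR-99 KD 2. Summed neutrophil markers were also highest in miR-99 KD 1, at 29728 CPM against 5349 to 8492 CPM elsewhere, and their part in this was not tested.

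In the TCA cycle, 4 of 10 genes were higher in both knockdown libraries, 1 was lower and 5 overlapped, with a median log2 difference of 0.18. The shares over all genes tested were 24.5% higher and 26.0% lower. Mdh2 (ENSMUSG00000019179), the mitochondrial malate dehydrogenase and the most abundant of the step, stood at 651 and 700 CPM in Scr against 868 and 900 CPM in miR-99 KD. Its log2 difference was 0.39 ± 0.13 (SE, edgeR adjusted p = 0.280). Cs (ENSMUSG00000005683), citrate synthase of the first step, stood at 396 and 371 CPM in Scr against 483 and 528 CPM in miR-99 KD, at 0.40 ± 0.13 (SE, edgeR adjusted p = 0.281). Both genes showed a gap between the groups wider than the gap within either. Fh1 (ENSMUSG00000026526), fumarase, stood at 155 and 150 CPM in Scr against 191 and 229 CPM in miR-99 KD, with a log2 difference of 0.46 ± 0.15 (SE, edgeR adjusted p = 0.269). Idh3a (ENSMUSG00000032279), a subunit of the NAD-dependent isocitrate dehydrogenase, stood at 415 and 415 CPM in Scr against 467 and 589 CPM in miR-99 KD. By DESeq2 the adjusted p was 0.0677 for Mdh2, 0.0716 for Cs and 0.0813 for Fh1.

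Idh2 (ENSMUSG00000030541), the NADP-dependent mitochondrial isocitrate dehydrogenase, was the member of the cycle that was lower. It stood at 307 and 369 CPM in Scr against 269 and 235 CPM in miR-99 KD, which is -0.42 ± 0.16 on the log2 scale (SE, edgeR adjusted p = 0.310). Its cytosolic partner Idh1 (ENSMUSG00000025950) ranged from 49.1 CPM in miR-99 KD 2 to 104 CPM in miR-99 KD 1 and overlapped. Ogdh and Dlst, subunits of the oxoglutarate dehydrogenase complex, Suclg1, a subunit of succinyl-CoA ligase, and Mdh1, the cytosolic malate dehydrogenase, had log2 differences of -0.07 to 0.14 and overlapped. Mdh1 stood at 359 and 389 CPM in Scr against 364 and 366 CPM in miR-99 KD. Mdh2 counts per kilobase were thus 2.64 and 2.62 times those of Mdh1 in Scr and 3.47 and 3.59 times in miR-99 KD, a ratio that varied little within groups (exact permutation p = 0.333, two-sided, n = 2 per group). Over the 10 pairs compared within libraries, 5 ratios were higher in both knockdown libraries, 0 were lower and 5 overlapped, and the Benjamini-Hochberg adjusted permutation p of the 5 was 0.667.

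**Figure D4:**
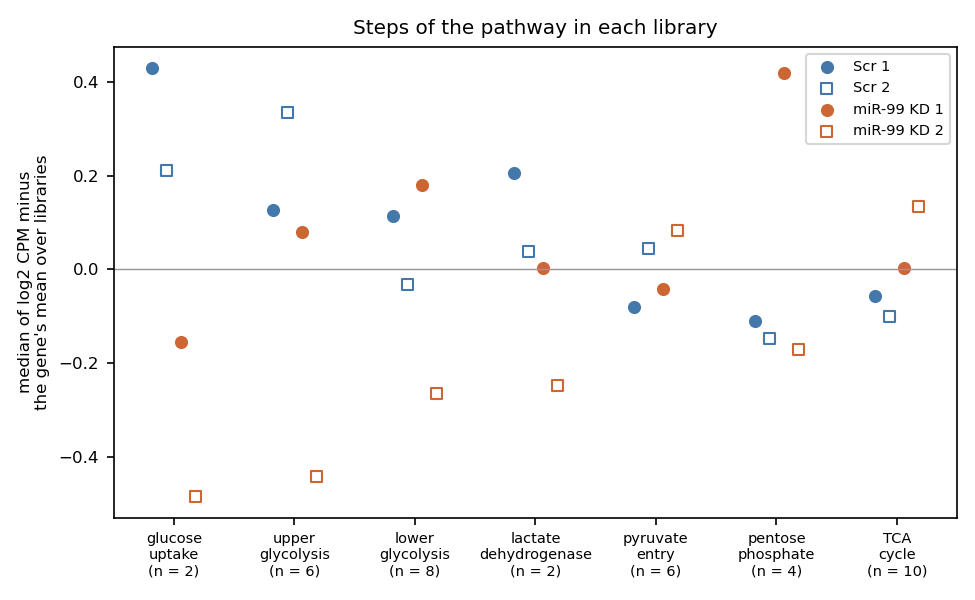
Median over the genes of each step (n below each name) of log2 CPM minus the gene's mean over the 4 libraries, by library. Glucose uptake separates the groups, at 0.43 and 0.21 in Scr against -0.16 and -0.48 in miR-99 KD; the pentose phosphate step stands at 0.42 in miR-99 KD 1 alone, and the lactate dehydrogenase value mixes subunits on opposite sides.

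The knockdown libraries differed from each other more than the controls did. The median distance between 2 libraries of a group was 0.12 in Scr and 0.28 in miR-99 KD on the log2 scale over the members, and 0.23 and 0.33 over all genes. It was larger in miR-99 KD for 26 of the 38 members, against 62.1% of all genes. miR-99 KD 2 was the lowest library for 19 members, against 29.9% of all genes, and miR-99 KD 1 the highest for 12, against 21.9%. Of the 18 genes from uptake to lactate, 13 were lowest in miR-99 KD 2, where their sum was 3208 CPM beside 4067 CPM in miR-99 KD 1 and 3903 and 3942 CPM in Scr. Of the 11 genes of the pyruvate dehydrogenase complex and the mitochondrial TCA cycle, 2 were lowest there. The sum of the 11 was 3191 and 3371 CPM in Scr against 3625 and 3902 CPM in miR-99 KD, and these groups did not overlap. The mean sum in miR-99 KD was 1.15 times that in Scr. With this scaling the summed CPM of all genes tested did not overlap between the groups either, at 1.06 times.

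The other genes of the same pathways, 80 from 5 lists, gave a similar picture of single genes in both directions. Of these 67 could be tested and edgeR called 0. At an unadjusted p under 0.05 it counted 5 higher and 7 lower, beside 5.97% and 9.63% of all genes tested. DESeq2 called 3 higher and 3 lower, beside 1.66% and 4.13% of all genes tested. Their median log2 difference was 0.13. Fbp1, the bisphosphatase that opposes phosphofructokinase, was lower with it, at 30.9 and 35.9 CPM in Scr against 17.5 and 11.1 CPM in miR-99 KD (DESeq2 adjusted p = 0.00785). Pgm1, a phosphoglucomutase, stood at 69.8 and 62.5 CPM in Scr against 43.5 and 26.2 CPM in miR-99 KD (DESeq2 adjusted p = 0.0396). Pdp1, a phosphatase that switches pyruvate dehydrogenase back on, was lower alongside Pdk1 and Pdk2, at 35.1 and 34.2 CPM in Scr against 22.1 and 17.5 CPM in miR-99 KD (DESeq2 adjusted p = 0.0294). The kinase Pdk3 was higher in the same libraries. Pdp2, another such phosphatase, overlapped at 9.95 and 11.7 CPM in Scr against 10.8 and 15.6 CPM in miR-99 KD.

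Rpe, an epimerase of the pentose phosphate pathway, was higher at 87.3 and 81.4 CPM in Scr against 121 and 123 CPM in miR-99 KD (DESeq2 adjusted p = 0.0192). Minpp1, an inositol phosphate phosphatase that also acts on bisphosphoglycerate, stood at 465 and 459 CPM in Scr against 646 and 852 CPM in miR-99 KD (DESeq2 adjusted p = 0.00790). Adpgk, an ADP-dependent glucokinase, was also called by DESeq2, but stood at 351 CPM in miR-99 KD 1 beside 135 CPM in miR-99 KD 2 and 106 and 98.1 CPM in Scr. Slc16a1, the MCT1 lactate carrier, stood at 381 and 371 CPM in Scr against 455 and 576 CPM in miR-99 KD, on the same side as Ldha, and passed neither test. Rbks, a ribokinase, was likewise higher in both, at 22.7 and 20.2 CPM in Scr against 30.4 and 32.9 CPM in miR-99 KD. The genes lower at an unadjusted p under 0.05 that DESeq2 did not call were Shpk, a sedoheptulose kinase, Sdha of succinate dehydrogenase, Ldhd and Slc2a10. Shpk stood at 14.3 and 15.3 CPM in Scr against 8.19 and 7.79 CPM in miR-99 KD, and Sdha at 324 and 448 CPM against 287 and 242 CPM. Ldhd and Slc2a10 were below 5 CPM in every library. Of 20 other TCA genes tested, 8 were higher in both knockdown libraries, 2 lower and 10 overlapped, with a median log2 difference of 0.14. Over all genes tested 24.5% were higher in both and 26.0% lower.

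**Figure D5:**
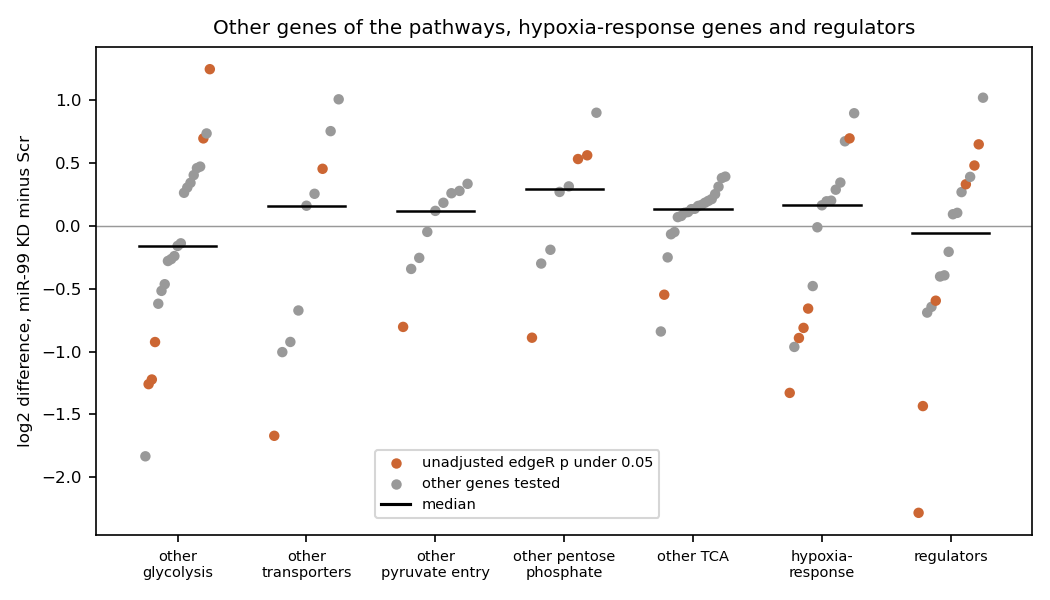
The log2 difference of each tested gene of 5 further pathway lists, hypoxia-response genes and regulators, with the list median as a bar and genes at an unadjusted edgeR p under 0.05 in orange. Orange points lie on both sides of 0 in 5 of the 7 lists, and the list medians range from -0.16 to 0.29.

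Hypoxia-response genes that are no metabolic enzyme were divided. Of 15 tested, 5 were higher in both knockdown libraries, 6 lower and 4 overlapped, with a median log2 difference of 0.16. The shares over all genes tested were 24.5% higher and 26.0% lower. Ndrg1, a stress-response gene, stood at 161 and 136 CPM in Scr against 61.1 and 57.2 CPM in miR-99 KD, called by DESeq2 (adjusted p = 4.1e-10) and not by edgeR (adjusted p = 0.191). Bnip3, a mitophagy receptor, Car9, a carbonic anhydrase, and Egln3, an oxygen-sensing hydroxylase, were lower in both knockdown libraries at log2 differences of -0.66, -0.81 and -0.89 and were called by neither test. Ero1l, an oxidase of the endoplasmic reticulum, stood at 71.5 and 77.1 CPM in Scr against 136 and 105 CPM in miR-99 KD and was called higher by DESeq2 (adjusted p = 0.0242).

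Among regulators, Hif1a, which encodes the oxygen-regulated subunit of the hypoxia factor, stood at 99.8 and 97.3 CPM in Scr against 83.9 and 87.1 CPM in miR-99 KD, or -0.21 ± 0.13 on the log2 scale (SE, edgeR adjusted p = 0.472). Meis1, a stem cell factor described as a driver of Hif1a, was lower at 247 and 209 CPM in Scr against 58.3 and 110 CPM in miR-99 KD (DESeq2 adjusted p = 3.8e-04). Myc, which activates many glycolytic genes, stood at 556 and 551 CPM in Scr against 704 and 689 CPM in miR-99 KD, and Mycn at 67.0 and 73.9 CPM in Scr against 40.1 and 53.1 CPM in miR-99 KD, with neither called. Nfe2l2, which encodes Nrf2, an activator of pentose phosphate genes, stood at 195 and 208 CPM in Scr against 306 and 325 CPM in miR-99 KD (DESeq2 adjusted p = 7.7e-04). Prkaa2, a catalytic subunit of the energy sensor AMPK, stood at 4.09 and 4.22 CPM in Scr against 0.948 and 0.753 CPM in miR-99 KD (DESeq2 adjusted p = 0.00999). Prkaa1, the other catalytic subunit, stood at 128 and 131 CPM in Scr against 149 and 191 CPM in miR-99 KD. Stk11, which encodes the kinase upstream of AMPK, stood at 26.4 and 32.5 CPM in Scr against 41.0 and 41.2 CPM in miR-99 KD and was called by neither test. None of the regulators passed edgeR, where the lowest adjusted p of the list was 0.202.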

How the data were processed

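Deposited values are raw counts of reads per Ensembl gene, 1 file per library, which the authors did not pool. The submitters' processing notes name the build mm9 and the tools HTSeq, STAR, DESeq2 and Picard; for versions, annotation and strandedness nothing is given in the sources used here. The 62 rows naming no gene were left out, among them reads outside any gene (8.31% to 13.8%) and reads with several alignments. Names and totals are pasted below the genes, and groups and numbers were taken from the titles. Beside a file's own totals stand Scr-2 in Scr 1, Zip99a-2 in miR-99 KD 1, Zip99a-1 in miR-99 KD 2 and no name in Scr 2. Both knockdown files also hold a control block: Scr-2 in miR-99 KD 1, with the totals of Scr 1, and Scr-1 in miR-99 KD 2, with totals that match none of the 4 libraries. Symbols, transcript lengths (longest coding sequence) and near-identical stretches (megablast) came from GENCODE M21, which is on another build.

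The test was glmQLFTest of edgeR 4.0.16 (R 4.3.3) after filterByExpr and TMM, called at an adjusted p of 0.05, with no block. Standard errors come from its F statistic. The deviations of same-numbered libraries had a correlation of 0.0567, so numbers were not taken as pairs. DESeq2 1.42.0 and limma-voom (limma 3.58.1) were alternatives. The tests were tried on simulated data. Members and lists were chosen with earlier results of these data known. The rule for named genes takes the 3 highest and 3 lowest differences, members at an unadjusted p under 0.05 or called by DESeq2, and the most abundant of each step; further members were named for their role, and of the regulators and hypoxia-response genes the text names a part.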

Additional observations from a re-analysis of the deposited data

How the results depend on the processing

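With edgeR, 0 genes and 0 members were called over all 4 libraries, and 0 and 0 by limma-voom, by the other scalings, at an adjusted p of 0.10, under the filter at 10 CPM in 2 libraries and with the replicate block. DESeq2 called 887 genes and 1 member, and edgeR without a filter 1064 genes and 2 members. Without each library in turn edgeR called 0 to 1013 genes and 0 to 4 members, the 4 and the 1013 without miR-99 KD 1 and 437 genes with 1 member, G6pdx, without miR-99 KD 2. In these fits members higher in the knockdown numbered 11 to 19, the 19 without miR-99 KD 2, and members lower 12 to 21, the 21 without miR-99 KD 1, while over all genes tested 30.7% to 39.7% were higher and 36.9% to 41.3% lower in these fits. The members' median log2 difference was lowest without miR-99 KD 1, at -0.15, and highest, at 0.053, when miR-99 KD 2 was left out. DESeq2 without each library in turn was an alternative chosen after seeing the data. In these DESeq2 fits the log2 difference of Pfkl ran from -1.31 without miR-99 KD 1 to -0.70 without Scr 2. The replicate block left 10 members higher and 11 lower, and its median log2 difference was 0.01; it changed no call. Of the 21 members whose difference exceeded its standard error, 0 took another sign under the 14 alternatives, and of the other 17, 15 did under at least 1, among them 6 under another scaling. The 21 are also the members whose groups did not overlap, so a fit without 1 library could hardly reverse their sign. For those fits the contrast largely follows from how the members were divided. The cause of the changes across alternatives was not tested. With 1 library left in a group, its spread is taken from the other group.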
